A study of Mus musculus with 7 samples.

Results

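The cells described here were the layer 6 corticothalamic (CT) excitatory neurons of the mouse cortex, selected by a rule on raw counts of unique molecular identifiers (UMIs, 1 per captured RNA molecule). A cell met the rule with at least 2 UMIs of Slc17a7, the vesicular glutamate transporter of cortical excitatory neurons, at most 1 UMI of Gad1 and Gad2 together, which make GABA, at least 1 UMI of the transcription factor Foxp2, and at least 1 of Rprm, Hs3st4 and Syt6 detected. Cells with 2 or more of Ctgf, Cplx3 and Nxph4, markers of the neighbouring layer 6b, were turned away. The rule took 1182 of 32985 cells, or 3.58%, and 11.4% of the 10396 cells that met its Slc17a7 and Gad limits (the excitatory gate).

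CT neurons lie in the deepest cortical layer and send glutamatergic axons back to the thalamus, with collaterals to the thalamic reticular nucleus and to layer 4. Through this feedback they adjust how thalamic cells relay signals to the cortex. Their identity is set by transcriptional regulators such as Tbr1, Sox5, Fezf2 and Tle4, and the receptors they carry make them sensitive to acetylcholine and dopamine.

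Libraries were made from 2 areas, the ventromedial prefrontal cortex (PFC) and motor cortex (MC), of B6129SF1/J mice at postnatal day 30, kept in 12 h of light and 12 h of dark. Control mice (CTRL) carried Opn4-Cre/+ with Brn3b-+/+, and ablated mice (DTA) carried Opn4-Cre/+ with Brn3b-zDTA/+, so that the Opn4-Cre allele was common to all groups. The Brn3b-zDTA allele, which carries the A chain of diphtheria toxin, is there to ablate intrinsically photosensitive retinal ganglion cells (ipRGCs), the melanopsin cells of the retina, in those that also express Brn3b. The retina was not sampled, so no gene of these libraries checks the genotype labels, and ipRGCs without Brn3b are not the target of the allele. The PFC gave 2 libraries of CTRL and 3 of DTA, and the MC gave 1 per genotype. The labels do not say how many animals went into a library, so p-values measure the spread between libraries.

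In the order PFC CTRL 1 and 2, PFC DTA 1 to 3, MC CTRL and MC DTA, which all lists of 7 values below follow, the rule took 165, 228, 57, 187, 123, 347 and 75 cells. Their UMIs summed to between 266715 and 2638102 per library, and the median per cell was 11372, 4494, 4986, 12445, 16779, 6265 and 12339. PFC DTA 3 stood apart: its CT cells had a median of 16779 UMIs, against 6829 in its other excitatory cells, while in the other libraries the CT median lay near or below that of the other excitatory cells. Scrublet called 32 CT cells doublets (2.71%), and these were kept in the main values. Of 32367 distinct barcodes 602 occurred in more than 1 library. These included the barcodes of 46 CT cells, and 2 barcodes met the rule in 2 libraries. Levels are given as a gene's counts per 1000000 counts (CPM), from counts summed over the cells of a library. Because the kit reads only the 3' end of each RNA, levels of different genes are not compared.

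The genes of the rule are described without a test, since they chose the cells. Foxp2 stood at 150, 252, 296, 132, 113, 260 and 135 CPM in the CT cells, Rprm (reprimo) at 1001, 1267, 1717, 719, 1150, 1002 and 660 CPM, and Hs3st4, which sulfates heparan chains, at 269, 204, 296, 201, 207, 314 and 181 CPM. Syt6, a synaptotagmin, stood between 63.7 and 94.4 CPM and Slc17a7 between 832 and 1458 CPM. Gad1 and Gad2 each stood at 8.29 CPM or less in every library, because the rule holds them there. In microglia-like cells, which should lack these genes, the 5 markers of the rule together stood at 45.6 to 167 CPM, against 2303 to 3273 CPM in the CT cells. Selection acted on both sides of this contrast. Microglia-like cells were taken with under 2 Slc17a7 UMIs, and the CT rule asks for the markers. The contrast therefore cannot measure free RNA, and no conclusion about it is drawn. All 5 markers were present in the CT cells of every library.

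The CT cells varied in how many of the marker genes they showed. Of the 3 genes Rprm, Hs3st4 and Syt6, 231 cells had exactly 1 and 951 had at least 2. Rprm was detected in 82.7% to 96.1% of the CT cells of a library, Hs3st4 in 60.5% to 90.9% and Syt6 in 22.8% to 61.3%, and the lowest values of Hs3st4 and Syt6 came from the shallow libraries PFC CTRL 2 and PFC DTA 1. With every cell thinned to 2000 UMIs and the rule applied again, Rprm was detected in 88.2% to 95.2% of CT cells in the 5 PFC libraries and in 77.3% and 75% in the MC. Syt6 went the other way at that depth, with 5.88% to 18.2% in the PFC and 26.4% and 25.0% in the MC, on 16 to 110 cells per library. On the layer 6b side of the rule, 1 of Ctgf, Cplx3 and Nxph4 was detected in 10.5% to 30.9% of PFC CT cells and in 2.31% and 10.7% of MC CT cells. Ctgf, a secreted matricellular protein, stood at 18.0, 16.9, 45.0, 23.9 and 32.4 CPM in the CT cells of the PFC and at 2.76 and 7.38 CPM in those of the MC.

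Tle4, a corepressor that marks CT neurons and was not part of the rule, gives a view of the cells at its edges. Over all libraries it stood at 182 CPM in the 673 CT cells with exactly 1 Foxp2 UMI and at 60.5 CPM in the 3625 cells that failed only on Foxp2. It stood at 107 CPM in the 231 CT cells with 1 of Rprm, Hs3st4 and Syt6 and at 27.5 CPM in the 128 cells with none of them. At the other limits the levels on both sides were close. They were 202 and 180 CPM at 2 and 1 Slc17a7 UMIs (62 and 54 cells), 155 and 159 CPM at 1 and 2 Gad UMIs (88 and 5 cells), and 204 and 199 CPM at 1 and 2 layer 6b markers (161 and 13 cells). Tle4 was detected in 57.9% to 87.9% of the CT cells of a library and in 3.95% to 13.6% of its microglia-like cells, whose median depth was 1023 to 3310 UMIs.

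The layer 6b gate held 34 cells, 12 of them in MC CTRL and at most 9 in any other library. Only 1 library reached the 10 cells needed for a test, so none was made. Summed over all libraries, these cells had 74.5 CPM of Foxp2, 93.9 CPM of Rprm, 268 CPM of Hs3st4, 13.8 CPM of Syt6 and 643 CPM of Ctgf. The CT cells summed in the same way had 176, 972, 238, 82.1 and 17.8 CPM of these genes.

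The share of CT cells among excitatory cells was compared between the PFC genotypes. It was 22.1% in PFC CTRL 1 (exact 95% interval 19.2 to 25.2), 6.96% in PFC CTRL 2 (6.11 to 7.88), and 9.81%, 11.7% and 8.99% in PFC DTA 1 to 3. The MC had 16.5% (14.9 to 18.1) in CTRL and 10.4% (8.29 to 12.9) in DTA. The 2 PFC CTRL libraries lay on either side of the 3 DTA libraries. CTRL averaged 14.5% ± 10.7 (SD, n = 2) and DTA averaged 10.2% ± 1.39 (SD, n = 3), so that DTA minus CTRL was -4.36 points of share (exact two-sided permutation p = 0.6, where the smallest p this design allows is 0.1). Among excitatory cells of 5000 to 10000 UMIs the MC order was the other way, 20.1% in CTRL and 25.7% in DTA, with intervals that overlap. The PFC difference was 3.21 points without PFC CTRL 1 and -11.9 points without PFC CTRL 2. A rule on raw UMIs takes more cells where cells are deeper, and fewer CT cells cannot be told apart from less RNA per cell. At 2000 UMIs per cell the shares were 7.69%, 3.62%, 6.67%, 2.99%, 2.57%, 9.04% and 3.56%, and the PFC genotypes differed by -1.58 points (exact permutation p = 0.5). Intervals cover counting error only. Thinning left out between 431 and 4983 cells of a library that had fewer UMIs.

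**Figure D1:**
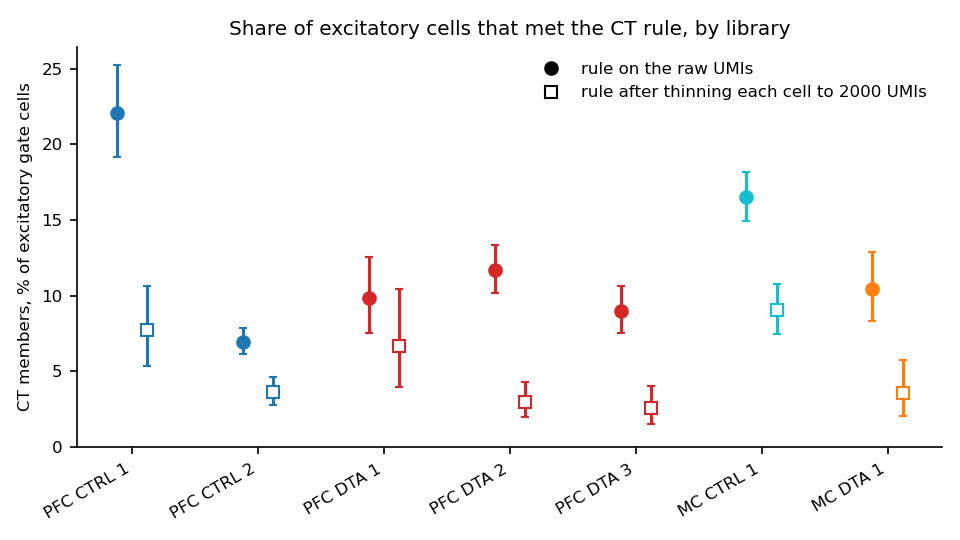
Share of excitatory gate cells that met the CT rule (percent, vertical axis) in each library, on the raw UMIs (filled circles) and after thinning each cell to 2000 UMIs (open squares), with exact 95% intervals that cover counting error only. PFC CTRL 1 is highest at 22.1% and PFC CTRL 2 lowest at 6.96% on the raw UMIs, and all shares fall after thinning.

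To find what sets CT cells apart, their summed counts were compared with those of the other excitatory cells of the same library. These were the cells of the excitatory gate that failed the Foxp2, CT marker or layer 6b limits, and they may hold CT neurons in which Foxp2 was missed. edgeR's quasi-likelihood test with library as a block tested 11830 genes. At a Benjamini-Hochberg adjusted p under 0.05, 4159 genes differed, which is 35.2% of those tested, with 2079 higher in CT cells (17.6%) and 2080 lower (17.6%). DESeq2 called 3538, and the count was 3809 without PFC DTA 3 and 4074 against other excitatory cells of at least the CT cells' median depth. The median log2 fold change over all genes was 0.00, and 25.7% of genes had the same direction in all 7 libraries.

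Among called genes of at least 50 CPM, the largest difference on the CT side was that of Sema5a, a transmembrane semaphorin that guides axons. It stood at 157, 113, 131, 131, 118, 162 and 130 CPM in CT cells and at 27.1, 19.0, 20, 16.7, 15.5, 26.5 and 12.4 CPM in the other excitatory cells. Every CT value was above every other value, and the log2 fold change was 2.84 ± 0.09 (SE, edgeR adjusted p = 1.23e-19). Nxph3, a secreted ligand of alpha-neurexins, stood at 157 ± 26.7 CPM (SD, n = 7) against 26.9 ± 9.05 CPM, a log2 fold change of 2.62 ± 0.10. Tle4 stood at 198 ± 29.9 CPM against 39.4 ± 10.1 CPM, with CT values between 161 and 240 and other values between 24.1 and 56.1, and a log2 fold change of 2.37 ± 0.07. Ppp1r1b encodes DARPP-32, a phosphatase inhibitor controlled by dopamine. It stood at 217, 252, 251, 139, 160, 372 and 354 CPM against 47.5, 37.3, 49.5, 34.4, 40.6, 118 and 133 CPM, higher in CT cells of every library and highest in the MC for both kinds of cell.

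The other genes named on the CT side were Ddah1, which breaks down methylated arginines, with a log2 fold change of 2.56, the ubiquitin ligase Rnf152 (2.50), the collagen Col12a1 (2.43), the growth arrest gene Gadd45a (2.14) and Rell1 (2.04). Ighm, the constant part of the IgM heavy chain, had a log2 fold change of 2.57 with a wide spread, 58.2 ± 51.0 CPM against 10.2 ± 7.80 CPM. Microglia-like cells held more of it, 295 CPM on average, and their part in its difference was not tested. The microglia markers together were low in CT cells, 3.28 to 31.7 CPM against 22.9 to 55.5 CPM in the other excitatory cells. All 20 genes named for this comparison, 10 in each direction, kept their direction and their call in all 340 values under other settings.

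Cux2, Calb1 and Rasgrf2, all of the upper layer list, were among the 10 genes named on the other side. Cux2, a homeobox factor of layers 2 to 4, stood at 7.10, 9.67, 15, 2.65, 11.3, 13.0 and 3.28 CPM in CT cells and at 59.6, 59.1, 43.0, 43.5, 65.1, 95.3 and 80.1 CPM in the other excitatory cells, a log2 fold change of -2.99 ± 0.17. The calcium buffer Calb1 had the same fold change of -2.99 ± 0.27, with 27.4 ± 14.7 CPM against 219 ± 58.4 CPM (SD, n = 7). Cck, the neuropeptide cholecystokinin, stood at 490, 1076, 371, 936, 1061, 879 and 1148 CPM in CT cells and between 3724 and 4395 CPM in the others. The CT cells and the others did not overlap, with a log2 fold change of -2.25 ± 0.22. The synaptic protein gene C1ql3 ranged from 7.50 to 288 CPM among CT cells, and each library's value was below that of its other excitatory cells (log2 fold change -2.51 ± 0.23). The remaining named genes were S100a6 at -2.78, the Nogo receptor relative Rtn4rl1 at -2.47, the secreted factor Fam19a1 at -2.33, the Ras exchange factor Rasgrf2 at -2.19, the transcription factor Bhlhe22 at -2.17 and the vesicle protein synaptoporin (Synpr) at -2.17.

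**Figure D2:**
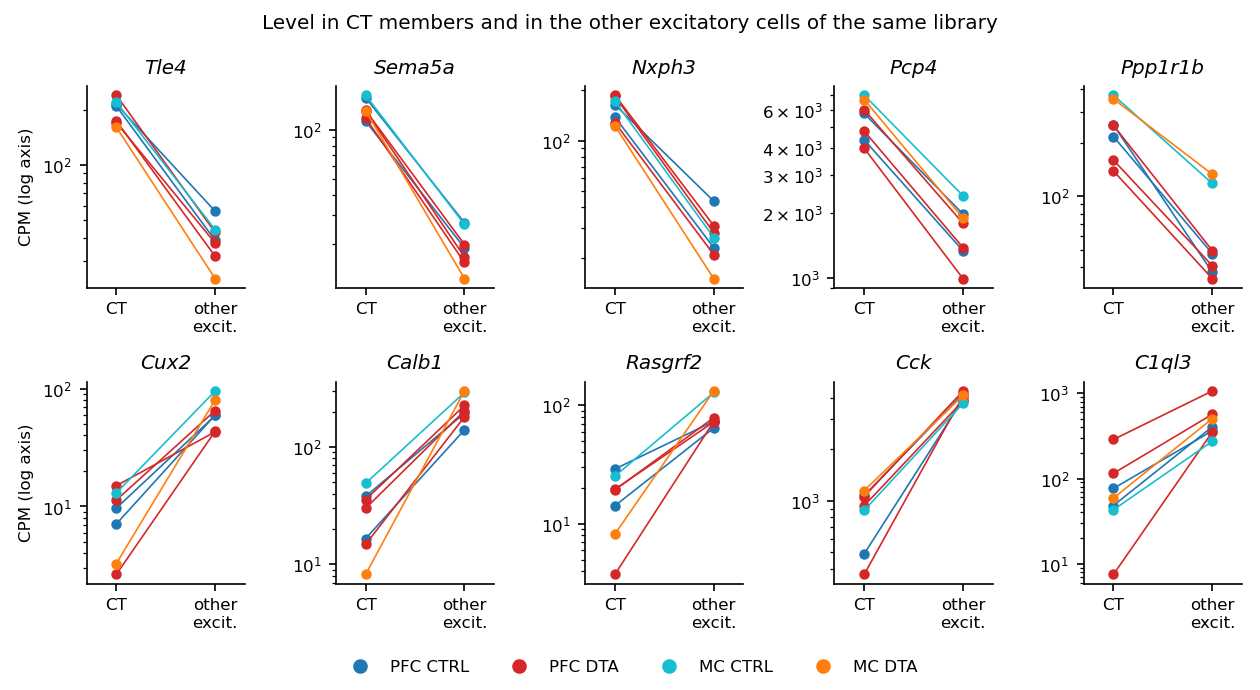
Level of 10 genes (CPM, log axis) in the CT cells and in the other excitatory cells, with a line joining the 2 values of each library, coloured by group. The 5 genes of the upper row are higher in the CT cells of every library and the 5 of the lower row are lower.

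Lists of genes were then read by layer and class. The lists were chosen with earlier results of these data known, so their counts describe and do not test, and each count is read against the 17.6% of all genes that were higher and the 17.6% that were lower. Of 15 CT identity genes outside the rule, all 15 were higher in CT cells, with a median log2 fold change of 1.49, against 0.00 over all genes. The calmodulin-binding peptide gene Pcp4 stood at 5514 ± 1165 CPM against 1680 ± 473 CPM (SD, n = 7; log2 fold change 1.77 ± 0.05), and its lowest CT value, 3983, was above the highest other value, 2397. Garnl3 had a log2 fold change of 1.80, Thsd7b of 2.41, the kainate receptor subunit Grik3 of 1.42, and the regulators Bcl11b, Fezf2, Tbr1 and Sox5 of 1.53, 1.29, 1.08 and 0.73. Ntsr1, the neurotensin receptor whose promoter is used for CT Cre lines, was low, at 13.0 ± 4.41 CPM against 6.52 ± 2.83 CPM (log2 fold change 0.82 ± 0.21).

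Markers of other layers were mostly lower. All 8 upper layer genes were lower (median -2.09), as were 5 of 6 tested layer 4/5 intratelencephalic genes (median -1.40), among them Rorb at -1.85, and 3 of 6 tested layer 5 extratelencephalic genes (median -0.66). Of 4 tested layer 6 intratelencephalic genes, Fst, Penk and Oprk1 were lower (-3.55, -2.75 and -1.67), while Col23a1 was higher at 1.70. Layer 6b genes outside the rule were mixed. The orexin receptor Hcrtr2 (2.36), the dopamine receptor Drd1 (0.82) and Nr4a2 (0.33) were higher, Kcnab1 was lower (-1.30), and 4 of 8 tested did not pass. Among 7 tested genes that mark CT subtypes, Krt80 (3.18), Sla (3.13), Cpa6 (2.10) and Nxph2 (1.61) were higher and Ctxn3 (-4.60), Brinp3 (-1.38) and Wls (-1.21) were lower. Ctxn3 lay at or near 0 in CT cells, with a mean of 0.183 CPM, so its fold change depends on the fit. Near-projecting genes had 1 of 5 called, Trhr at 1.07.

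Of 28 neuromodulator receptors tested, 9 were higher and 11 lower (median 0.08), against 17.6% of all genes each way. Both orexin receptors were higher, Hcrtr1 at 9.60 ± 3.54 CPM against 2.42 ± 0.77 CPM (SD, n = 7; log2 fold change 2.15 ± 0.24) and Hcrtr2 at 9.63 ± 3.94 CPM against 2.02 ± 0.85 CPM. Hcrtr2 is also of the layer 6b list, 161 CT cells had 1 layer 6b marker, and no layer 6b test was made. Both receptors were low, where 3 counts in PFC DTA 1 stand at 11.2 CPM. The nicotinic subunits Chrna4 and Chrna5 were higher by 1.92 and 2.64 on the log2 scale. Chrna4 stood at 57.3, 70.9, 78.7, 59.9, 49.4, 69.1 and 59.9 CPM in CT cells, against 9.38 to 23.3 CPM in the others. Both tested D1-class dopamine receptors were higher, Drd5 at 1.97 and Drd1 at 0.82, as were the serotonin receptor Htr1f (1.58) and the somatostatin receptor Sstr2 (0.97). On the lower side stood the muscarinic receptors Chrm1, Chrm2 and Chrm3 (-0.43, -0.89 and -0.28), the serotonin receptors Htr2a (-1.82) and Htr1b (-1.77), the adrenergic receptors Adrb1 (-1.07) and Adra2c (-0.95), the neuropeptide Y receptor Npy1r (-1.04) and the cannabinoid receptor Cnr1 (-1.34).

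Of 20 glutamate receptor genes, 5 were higher and 9 lower, where 5 is near the 17.6% of all genes. The kainate subunits Grik3, Grik4 and Grik5 (1.42, 0.73 and 0.27) and the metabotropic receptors Grm4 and Grm8 (0.62 and 0.56) were higher. Among those lower were the metabotropic receptors Grm2, Grm7 and Grm5 (-1.5, -0.93 and -0.91), the NMDA subunits Grin3a, Grin2b and Grin2a (-1.46, -0.42 and -0.41), the AMPA subunit Gria4 (-0.97) and the kainate subunit Grik2 (-0.39). Of 12 GABA-A receptor subunits, 8 were lower, among them Gabrg1 (-2.94, from 5.29 to 0.606 CPM on average), Gabra2 (-1.5) and the extrasynaptic subunit Gabrd (-0.78), and only Gabra5 (0.69) and Gabrg3 (0.36) were higher. The median of this list was -0.29.

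Of 31 potassium and HCN channel genes, 8 were higher and 16 lower (median -0.21), against 17.6% of all genes each way. The leak channels Kcnk2 (0.83) and Kcnk1 (0.45) and the delayed rectifier Kcna1 (0.80) were higher, and the M-current subunits Kcnq5 (-1.57) and Kcnq3 (-0.59) and Kcnb2 (-1.26) were lower. Axon guidance genes had 8 higher and 16 lower of 35 tested. With Sema5a, its relative Sema5b (1.92), the semaphorin co-receptor Nrp1 (1.64) and the repellent Slit1 (0.66) were higher, while the netrin receptors Unc5d (-2.57) and Unc5c (-1.88), Plxnd1 (-1.96), the slit receptor Robo2 (-1.19) and Epha4 (-1.17) were lower. Genes of vesicle release had 10 higher and 5 lower of 25, with small shifts for the core machinery: Snap25 0.35, Vamp2 0.21 and Cplx2 0.51 were higher, and Syt17 (-2.06), Rims3 (-0.88) and Syt4 (-0.73) lower.

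Of 18 clock genes, 14 were lower in CT cells and 0 higher (median -0.45). Rorb, which is also a layer 4 marker, and the transcriptional repressor Bhlhe40 had the largest differences, -1.85 and -1.63. The output factor Dbp stood at -0.80, Arntl at -0.48, Per2 at -0.61, Per3 at -0.35 and Nr1d1 at -0.42. Clock (0.13), Per1 (-0.14), Cry1 (-0.09) and Bhlhe41 (-0.31) did not pass. Immediate early genes had 3 higher (Arc 0.66, Ier2 0.39, Egr1 0.35) and 3 lower of 18, each near the 17.6% of all genes. Glucocorticoid response genes had 4 higher (Sgk1 0.64, Klf9 0.48, Tsc22d3 0.43, Ddit4 0.38) and 4 lower of 12. Mitochondrially encoded genes had 9 lower of 13, each by at most 0.29, and heat shock genes 6 higher of 11, led by Hsp90ab1 at 0.62.

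**Figure D3:**
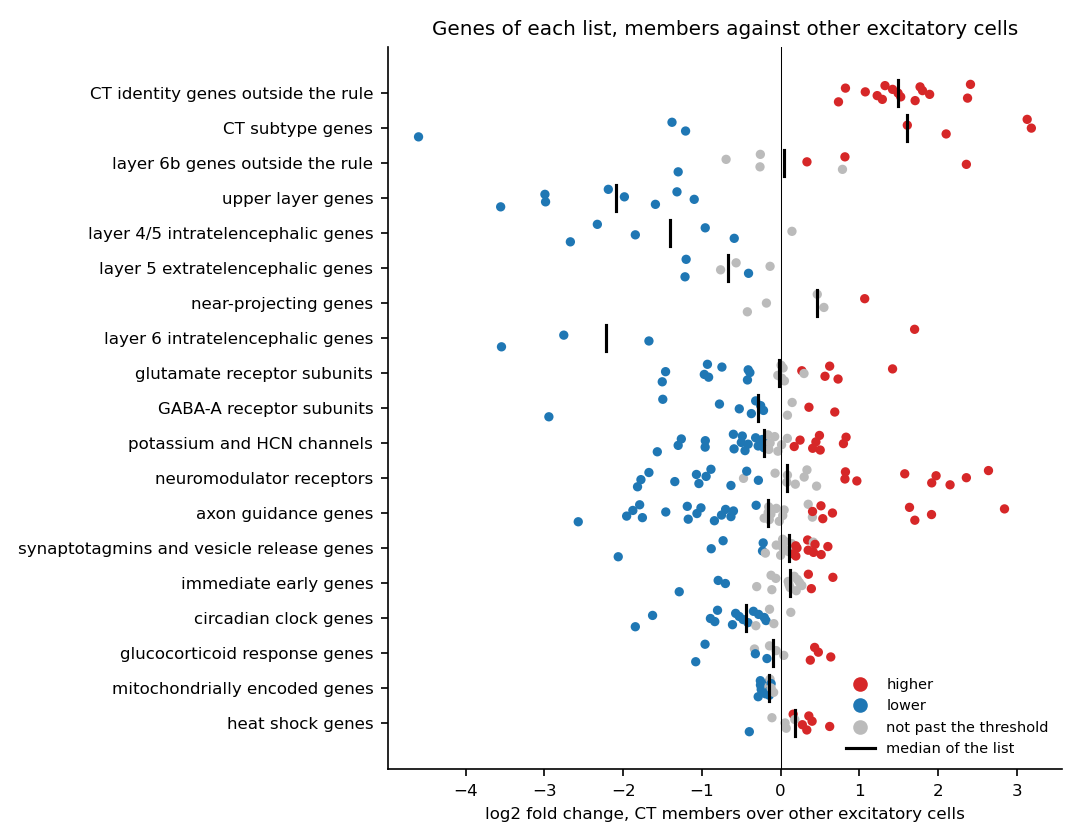
Log2 fold change of each tested gene (points) in CT cells over other excitatory cells, by list, with red for higher and blue for lower at an edgeR adjusted p under 0.05, grey for not past it and a black bar for the list's median. CT identity genes lie wholly on the higher side with a median of 1.49, and upper layer genes wholly on the lower side with a median of -2.09.

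CT cells of the MC were compared with those of the PFC over all 7 libraries with genotype as a term. edgeR's quasi-likelihood test called 216 of 10823 genes, 2% of those tested, with 105 higher in the MC (0.97%) and 111 lower (1.03%). The groups did not overlap for 15.8% of all tested genes. The MC rests on 1 library per genotype, and the count was 39 without MC CTRL and 26 without MC DTA, where the lone MC library is assumed to vary like the others. DESeq2 called 164.

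Genes lower in the MC had the larger differences. Nnat, an imprinted gene for the membrane protein neuronatin, stood at 390, 387, 409, 206 and 172 CPM in the PFC and at 28.4 and 5.74 CPM in the MC. The areas did not overlap, and the log2 fold change was -4.19 ± 0.54 (SE, edgeR adjusted p = 0.0198). The other excitatory cells showed the same order, 156 to 382 CPM in the PFC and 41.0 and 28.1 CPM in the MC. The adjusted p of Nnat was 0.0693 with at least 2 CT markers required, 0.0820 without the genotype term, 0.0549 without PFC CTRL 2 and 0.0625 without PFC DTA 2. Cxcl12, a chemokine, stood at 102, 112, 82.5, 120 and 92.6 CPM in the PFC and at 20.1 and 26.2 CPM in the MC (log2 fold change -2.19 ± 0.21). The synaptic vesicle GTPase gene Rab3b stood at 102, 82.2, 180, 69.4 and 92.6 CPM and at 21.3 and 20.5 CPM (-2.17 ± 0.35), with an adjusted p of 0.274 without MC CTRL, 0.312 without MC DTA and 0.0501 without PFC DTA 3.

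Efnb3, a transmembrane ephrin, stood at 77.9 ± 15 CPM (SD, n = 5) in the PFC and at 22.1 and 17.2 CPM in the MC (-1.93 ± 0.22). The kinase gene Pnck (-2.01), the sialyltransferase St6galnac5 (-1.97), the nicotinic receptor modulator Lypd1 (-1.82), the adhesion protein teneurin-2 (Tenm2, -1.57), the transcriptional regulator Lmo1 (-1.55) and the sodium pump regulator Fxyd6 (-1.5) were also lower. Calls of Lypd1 and Tenm2 were lost without either MC library, and those of Lmo1 and Fxyd6 without MC DTA.

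On the higher side, Brinp3 stood at 10.9, 16.1, 7.50, 33.0 and 23.7 CPM in the PFC and at 38.7 and 91.8 CPM in the MC (log2 fold change 1.71 ± 0.23). The 2 MC values were far apart, and the call was lost without MC DTA and without the genotype term. Cplx2, a complexin that clamps and aids vesicle fusion, stood at 398, 373, 277, 494 and 300 CPM and at 953 and 818 CPM (1.24 ± 0.18), with adjusted p of 0.0663 without MC CTRL and 0.0610 without MC DTA. Slc24a2, a sodium, potassium and calcium exchanger, stood at 212, 167, 101, 188 and 174 CPM and at 450 and 419 CPM (1.31 ± 0.17). Inf2, a formin that acts on actin, stood at 47.2 ± 8.65 CPM (SD, n = 5) in the PFC and at 126 and 120 CPM in the MC (1.34 ± 0.18), and kept its call under every alternative run for this comparison. The serine protease gene Prss23 (1.44), the calcium sensors Hpca (1.43) and Cabp1 (1.25), the myosin light chain Myl4 (1.39), Igfbp6 (1.33) and the semaphorin Sema7a (1.23) were also higher. The calls of Cabp1, Igfbp6 and Sema7a were lost without either MC library, that of Prss23 without MC CTRL, those of Myl4 and Slc24a2 without MC DTA, and that of Hpca without the genotype term.

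**Figure D4:**
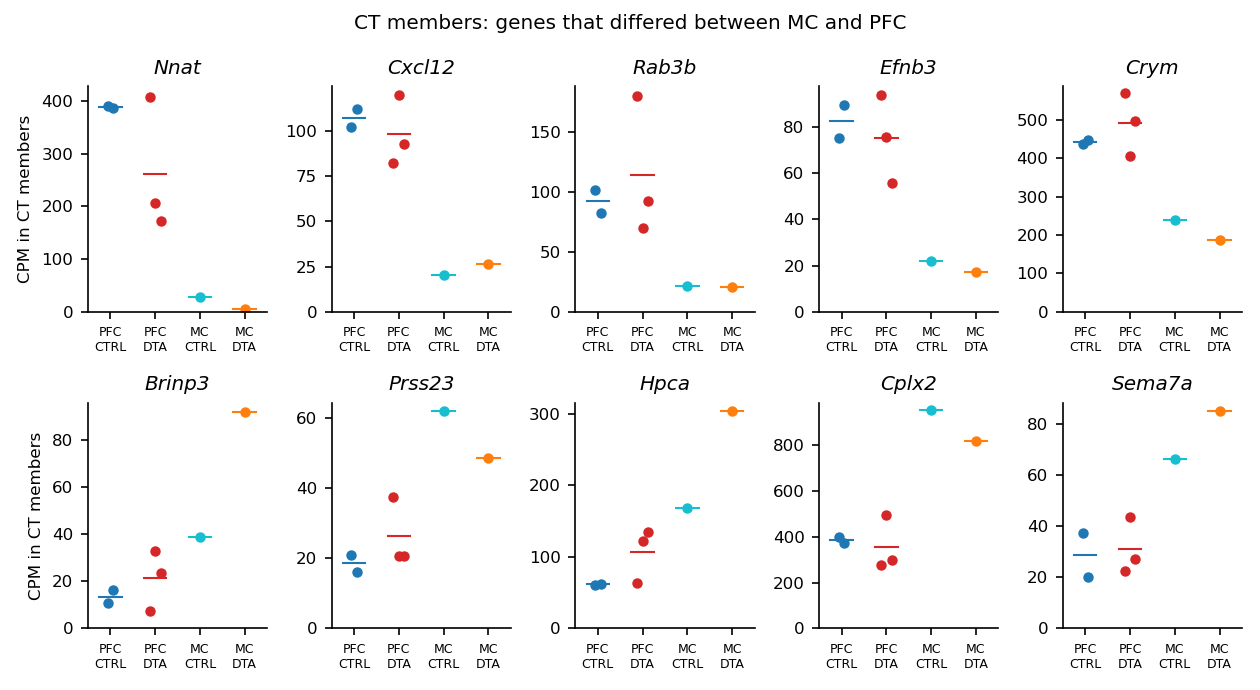
Level of 10 genes (CPM) in the CT cells of each library (points), with the group mean as a bar; MC groups have 1 library each. The upper row is lower in both MC libraries than in any of the 5 PFC libraries, and the lower row is higher.

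The lists between areas stand beside the 0.97% of all genes that were higher in the MC and the 1.03% that were lower. A single call in a list is not read as a result about the list. Of 15 CT identity genes 2 were called, both lower in the MC, with a median of -0.05 over the list and 0.00 over all genes. Crym, a thyroid hormone binding protein, stood at 438, 449, 570, 405 and 499 CPM in the PFC and at 240 and 189 CPM in the MC (-1.12 ± 0.19), and Fezf2 at 163 ± 13.8 CPM (SD, n = 5) and at 84.5 and 104 CPM (-0.80 ± 0.17). Of 6 tested subtype genes, Brinp3 and Krt80 (2.01 ± 0.37) were higher in the MC. Some lists of other deep layer classes leaned lower in the MC. All 6 tested layer 6b genes outside the rule had negative fold changes (median -0.71, 0 called). So had all 4 near-projecting genes (-1.02, with Lypd1 called) and all 3 layer 5 extratelencephalic genes (-0.55, 0 called). Upper layer genes had 4 positive and 3 negative (0.10). A different mix of classes among the CT cells of the areas was not tested. Axon guidance genes had 3 higher (Unc5d 1.81, Sema7a 1.23, Epha4 0.94) and 4 lower (Nrp2 -1.96, Efnb3 -1.93, Cntn5 -1.42, Epha5 -0.61) of 34. Vesicle release genes had 3 higher of 24, Vamp1 (1.56), Cplx2 (1.24) and Cplx1 (0.92). Of the GABA-A subunits Gabrd (0.99) was higher and Gabra5 (-0.83) and Gabrb1 (-0.62) lower, and of the glutamate receptors Grm5 (-0.67) was lower. The adrenergic receptor Adra1b (1.03) was higher, and the serotonin receptor Htr2c (-2.56) lower, though its PFC values, 0 to 34.5 CPM, overlapped those of the MC. Among 18 clock genes only Rorb (1.48) was called, and among 18 immediate early genes only Nr4a3 (-1.09), while the median of the latter list was -0.98. None of 30 potassium and HCN channel genes was called, and 17 of them had an unadjusted p under 0.05, with a median of 0.35, where 1366 of all 10823 genes had such a p. Pvalb, a marker of inhibitory cells, was higher at 20.1 and 25.4 CPM in the MC, against 2.37 to 7.50 CPM in the PFC. The other excitatory cells of the MC held 20.3 and 15.8 CPM, and the 6 inhibitory markers together stood at 23.7 to 92.7 CPM in CT cells of either area. The part of free RNA from inhibitory cells in the Pvalb difference was not tested.

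Whether the CT cells differ from other excitatory cells in the same way in both areas was tested with an interaction term. It passed for 103 of 11830 genes (0.871%). Among the 14 genes of smallest p with at least 50 CPM, chosen after their values were seen, Bcl11b, a zinc finger factor of deep layer projection neurons, had the smallest p. It stood at 150 CPM in CT cells and 70.2 CPM in other excitatory cells of the PFC, and at 178 and 35.8 CPM in the MC, an added log2 difference of 1.20 ± 0.15. The larger contrast in the MC came with a lower level in the other excitatory cells there. The glycine receptor subunit Glra2 had 67.5 against 21.4 CPM in the PFC and 62.1 against 7.29 CPM in the MC (1.42 ± 0.20), and Sez6 had 188 against 110 CPM and 188 against 64.7 CPM (0.77 ± 0.13). Cxcl12 went the other way (-1.37 ± 0.21), with 102 against 59.1 CPM in the PFC and 23.2 against 32.5 CPM in the MC. Rcan2, a calcineurin inhibitor, stood at 94.2 against 41.6 CPM in the PFC and at 104 against 93.7 CPM in the MC (-0.97 ± 0.15).

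The genotypes were compared in the CT cells of the 5 PFC libraries. Of 10607 genes tested, 0 passed in edgeR's quasi-likelihood test (0%), where 273 had an unadjusted p under 0.05. DESeq2 also called 0, with 62 under that unadjusted p. Without the filter on low counts edgeR called 15 genes, and without PFC CTRL 1 it called 8. The 2 CTRL and 3 DTA libraries did not overlap for 15.7% of all tested genes. On simulated counts of this design, at a dispersion set to 0.05, the test recovered 98 of 100 genes changed by 4-fold and 25 of 100 changed by 2-fold. It also called 12 unchanged genes. The changed genes were drawn from those of higher counts, and the spread of the real libraries was not set beside that dispersion. The simulation therefore does not say which changes the real libraries could have shown. The comparison is described by the 5 genes of smallest p each way with at least 20 CPM, all of them at an edgeR adjusted p of 1.

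Toward higher values in DTA lay mt-Atp8, at 17 and 16.9 CPM in CTRL and 18.7, 63.3 and 39.6 CPM in DTA, with a log2 fold change of 1.5 ± 0.31. The DTA 1 value was close to CTRL and the other 2 were not. The MC libraries had 46.2 CPM in CTRL and 50 CPM in DTA, and the other excitatory cells of PFC DTA 2 and 3 were high too, at 68.9 and 52.6 CPM. Hpca, a neuronal calcium sensor, stood at 60.6 and 62.1 CPM in CTRL and 63.7, 122 and 135 CPM in DTA (0.94 ± 0.22). Snhg9 (1.5), Taf1d (0.84) and Usp50 (0.91) had the next smallest p. In all 5, PFC DTA 1 was the DTA library nearest to CTRL. PFC DTA 1 had the fewest CT cells, 57, and a median depth of 4986 UMIs. The median was 11372 UMIs in PFC CTRL 1 and 4494 UMIs in PFC CTRL 2. With a term for deep libraries 0 genes passed, whether depth was that of the excitatory cells or of the CT cells. The part of depth in the values of these genes was not tested. Without the filter on low counts, mt-Atp8, Hpca, Snhg9 and Usp50 passed, with edgeR adjusted p of 0.000262, 0.0134, 0.00648 and 0.0491.

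Toward lower values lay the neuropeptide gene Npy, at 19.9 and 49.2 CPM in CTRL and 15, 9.86 and 13.9 CPM in DTA, without overlap (log2 fold change -1.42 ± 0.37). CT neurons are not a main source of Npy in the cortex, where interneurons carry it. The other excitatory cells held more, 69.1 and 72.0 CPM in CTRL and 56.4, 22.4 and 50.6 CPM in DTA, and the inhibitory markers together stood at 92.7 CPM in CT cells of PFC CTRL 2 (Vip 32.2 CPM), against 23.7 to 36 CPM (Vip 0 to 4.26 CPM) in the other PFC libraries. The part of free RNA from inhibitory cells was not tested. Without PFC CTRL 1, which left 1 CTRL library, Npy stood at -1.97. It passed without the filter on low counts, at -1.42 and an edgeR adjusted p of 0.0149, and the inhibitory marker Vip passed there too. Slc24a5 (-0.75), Zfp644 (-0.60), Igf2bp3 (-0.65) and Cd24a (-0.61) had the next smallest p. Cd24a reversed to 0.06 with equal numbers of CT cells per library.

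**Figure D5:**
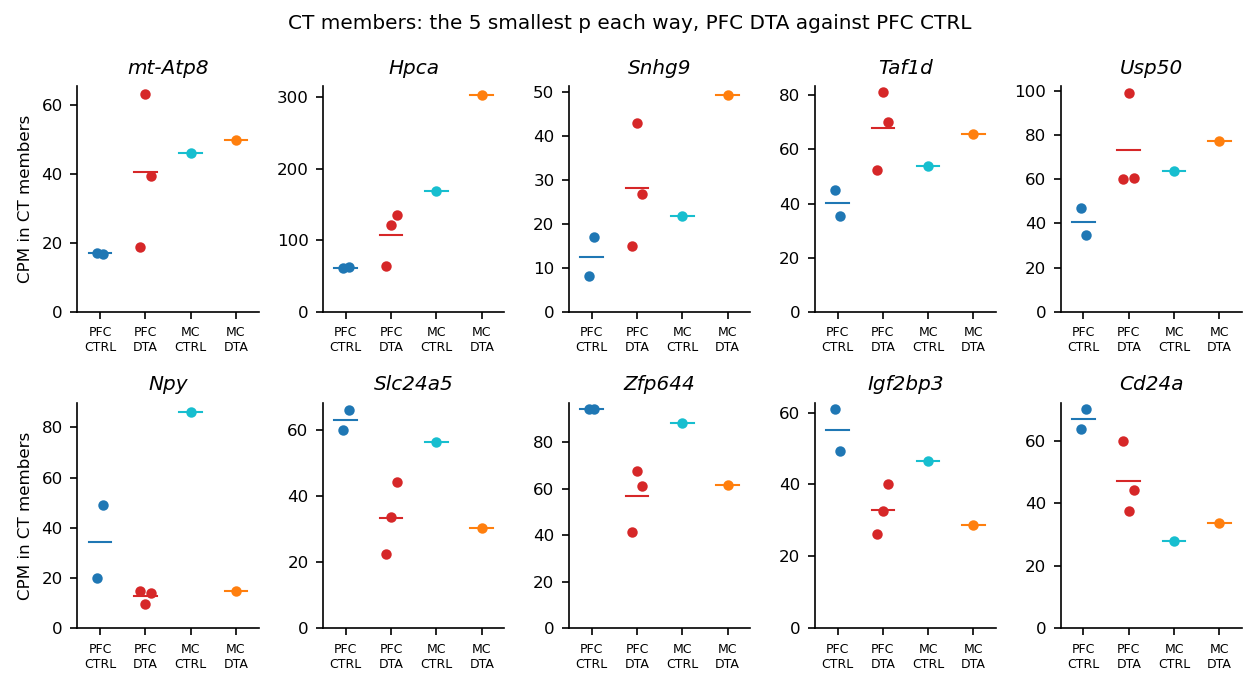
Level of the 10 genes of smallest p in the PFC genotype comparison (CPM) in the CT cells of each library (points), with the group mean as a bar; none passed at an adjusted p under 0.05. PFC DTA points spread widely for the upper row, and Npy is low in all DTA libraries, 9.86 to 15 CPM.

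The lists had no called gene between the PFC genotypes. Clock genes had a median of 0.18 over 18 genes, and 1 of them, Cry1, had an unadjusted p under 0.05, with 5.21 and 6.45 CPM in CTRL and 3.75, 12.1 and 15.4 CPM in DTA. Arntl, next by p, stood at 22.2 and 16.9 CPM and at 11.2, 29.6 and 31.9 CPM. Immediate early genes had a median of 0.27, with 3 of 18 under that p, against 273 of all 10607 genes. Fosb, a partner of Jun in the AP-1 factor, stood at 36.0 and 25.0 CPM in CTRL and at 41.2, 46.6 and 84.3 CPM in DTA. Glucocorticoid response genes had a median of 0.10, with 0 of 11 under that p, and heat shock genes a median of 0.29, with 1 of 10. CT identity genes had a median of -0.04 and 0 of 15, against 0.01 over all genes.

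A few CT cells carried RNA of other cell types. In PFC CTRL 1, 1 CT cell held 5515 of the 6282 haemoglobin UMIs of all CT cells there, and in MC CTRL, 1 cell held 2527 of 2867. In PFC DTA 3, 1 cell held 1279 of 2167 UMIs of oligodendrocyte markers. In all, 19 CT cells had 50 or more UMIs of either kind, and 8 of them were called doublets. Blood genes together stood at 3012 CPM in CT cells of PFC CTRL 1, against 75.8 to 270 CPM in the other PFC libraries, and oligodendrocyte markers at 161 to 1639 CPM across the PFC. With those 19 cells left out, the counts of genes called were 4294 against other excitatory cells, 0 between the PFC genotypes and 255 between the areas.

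In the MC, with 1 library of each genotype, no test was possible. Among 4481 genes that reached 50 counts in both libraries, 49 (1.09%) lay past 2-fold, 40 higher in DTA (0.893%) and 9 lower (0.201%). The largest ratios upward were Cyr61, a secreted matricellular protein also called Ccn1, at 44.2 CPM in CTRL and 204 CPM in DTA (log2 ratio 2.23, interval for counting error 1.90 to 2.57), the activity gene Npas4 at 41.1 and 175 CPM (2.11), the exchanger Slc24a3 at 19.7 and 77.9 CPM (2.0) and the heat shock gene Hspa1a at 21.7 and 81.2 CPM (1.93). In the PFC, Cyr61 stood at 174 and 160 CPM in CTRL and 296, 139 and 311 CPM in DTA, and Npas4 at 144 and 109 CPM and 150, 163 and 253 CPM, and MC CTRL was the lowest of all 7 libraries for both. The largest ratios downward were Hbb-bs (-3.61), Rpl29 (-1.96), Mbp (-1.79) and the calcium pump Atp2b4 (-1.29). Without the cells with 50 or more haemoglobin or oligodendrocyte UMIs, Hbb-bs stood at -0.52 and Mbp at -1.24. Hbb-bs can share reads with its near-identical copy Hbb-bt, and Rpl29 with pseudogene copies. In the PFC, Rpl29 stood at 329 and 354 CPM in CTRL and 307, 138 and 260 CPM in DTA.

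For the genes named for the PFC genotypes, the MC log2 ratios were Hpca 0.88, Snhg9 1.20, mt-Atp8 0.14, Taf1d 0.31, Usp50 0.30, Npy -2.52, Slc24a5 -0.87, Zfp644 -0.49 and Igf2bp3 -0.67, and Cd24a stood at 0.29. The counting intervals of mt-Atp8, Taf1d, Usp50 and Cd24a included 0. The Npy level of MC CTRL, 86.1 CPM, was the highest of all 7 libraries, and that of MC DTA was 14.8 CPM. PFC CTRL 2 was next highest. MC CTRL and PFC CTRL 2 also stood apart from every other library in genes of other cell types. S100a8 stood at 1.18 and 1.61 CPM in their CT cells, against 20.5 to 32.6 CPM elsewhere. Vip stood at 17.8 and 32.2 CPM, against 0 to 4.26 CPM elsewhere. In both genes PFC CTRL 1 lay with the DTA libraries, so this grouping does not follow genotype. Its part in the Npy values was not tested. The inhibitory markers together stood at 86.9 CPM in CT cells of MC CTRL and 45.9 CPM in those of MC DTA (Sst 31.2 and 15.6 CPM, Vip 17.8 and 3.28 CPM), and their part in the Npy difference was not tested.

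In the annotation of GRCm38, Sema5a lies on chromosome 15 from 32244810 to 32696341, Tle4 on chromosome 19 from 14448150 to 14598051, Cux2 on chromosome 5 from 121856366 to 122050102 and Npy on chromosome 6 from 49822710 to 49829507. Nnat, on chromosome 2 from 157560078 to 157562522, lies inside Blcap on the other strand without sharing an exon. No source used here gives the strand setting of the counting, so genes that share exonic sequence with a neighbour are uncertain. Among the genes named these are mt-Atp8 with mt-Atp6, Hpca with Tmem54, Slc24a5 with Myef2, Snhg9 with Rps2, Taf1d with genes of small nucleolar RNAs, Igf2bp3 with Malsu1, Zfp644 with Gm28039, Lypd1 with Gpr39 and Prss23 with Prss23os. The same holds for Ppp1r1b, Gadd45a, Rell1, Rnf152, Rab3b, Brinp3, Myl4, St6galnac5 and Hspa1a, whose neighbours are mostly genes known by clone or model names.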

How the data were processed

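Single cells of 7 libraries were captured with the 10X Genomics 3' V2 kit, per the labels' protocols. Cell Ranger 3.0.2 and Seurat, with the mm10 build, are named in the submitters' processing notes. The deposited tables hold raw UMI counts per gene and cell, of 15820 to 18376 genes (19614 in any table; a gene missing from a table was taken as 0), and their cells have at least 501 genes. Library totals ranged from 6180059 to 30972905 counts.

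Counts were summed per library and gate, and a cell was never a replicate. edgeR 4.0.16 (TMM scaling, filterByExpr at 10 counts, robust quasi-likelihood fit) tested all genes with Benjamini-Hochberg adjustment over all of them. Library was a block for CT against other excitatory cells and genotype a term for areas. Standard errors are the fold change over the root of F. DESeq2 1.42.0, other scaling, no filter, a stricter rule (at least 2 CT markers), doublets left out, depth terms, equal cell numbers, and each library left out were alternatives. Scrublet in scanpy 1.11.5 called doublets. In 1 library its own threshold called 0 cells, so that the number of calls there was set from an assumed rate. Microglia-like cells had at least 2 microglia markers and under 2 Slc17a7 UMIs. The model was tested on simulated counts, with changed genes drawn from those of higher counts and a dispersion set to 0.05 for every gene. Against other excitatory cells it recovered 89 of 100 genes changed 2-fold, and between areas 32 of 100.

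Genes were named by rule: the 10 largest fold changes each way among called genes with at least 50 CPM, the same direction in every library or no overlap between areas; for genotypes with 0 calls, the 5 smallest p each way with at least 20 CPM; and for the MC genotypes the 4 largest ratios each way. Predicted, pseudo and sex-chromosome-specific genes were left out of that rule. Lists gave up to 5 called genes each way by p, and further list members were named after their values were seen. The cell rule, the members and the lists were chosen with earlier results of these data known. The layer 6b comparison was not fitted. Opn4 and Pou4f2 were not analysed here. Figures were drawn with matplotlib 3.10.9.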

Additional observations from a re-analysis of the deposited data

Results flagged for a closer look

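Among all named and listed genes, 11 passed an interaction term in edgeR: their contrast between CT and other excitatory cells differed between the areas. Over all genes the share was 0.871%. Cxcl12, Pnck and Hpca were named because their CT levels differed between the areas, and the interaction uses those same values. The 11 genes are therefore a description and are not read as an excess over that share. The values are differences of the log2 contrast, MC minus PFC. Cxcl12 had -1.37 ± 0.21 (SE, adjusted p = 0.000157), with a mean log2 ratio of CT to other cells of 0.77 in the PFC and -0.49 in the MC. Ppp1r1b had -0.71 ± 0.16 (adjusted p = 0.0409), with ratios of 2.24 and 1.53. Pnck had -0.74 ± 0.19 (adjusted p = 0.0435), with ratios of -0.11 and -0.88. Hpca had 0.71 ± 0.16 (adjusted p = 0.0435), with ratios of -1.21 and -0.46.

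Bcl11b had 1.20, with ratios of 1.10 in the PFC and 2.36 in the MC, and Cd24a had 1.38, with ratios of 0.62 and 1.87. The mean Cd24a level was lower in the MC for both kinds of cell. It stood at 55.2 CPM in CT cells and 35.7 CPM in the others of the PFC, and at 30.8 and 8.13 CPM in the MC. Npas4 had 0.76, with ratios of -0.05 and 0.65. Oprk1, the kappa opioid receptor, had 2.32, with ratios of -2.97 and -0.40. The metabotropic glutamate receptor Grm5 had -0.52, with ratios of -0.83 and -1.32, and the homeobox factor Cux1 had -1.40, with ratios of -0.81 and -2.34. Slc17a6, another vesicular glutamate transporter, had -1.97, with ratios of 0.85 and -0.93. The MC side rests on 2 libraries, and Glra2, Sez6 and Rcan2, given in the report, also passed.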

How the results depend on the processing

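Of 64 alternative values of the main counts and shares, 52 stayed close. CT against other excitatory cells gave 3478 to 4500 calls, and 3637 to 4260 with 1 library left out, but 1920 with no replicate block. Between the PFC genotypes, 15 genes passed with no filter, 8 with the replicate block (all lower in DTA, among them the myelin genes Mag, Mal and Cldn11), 13 with the block and without the cells rich in haemoglobin or oligodendrocyte RNA, an alternative chosen after seeing the data, and 0 to 8 with 1 library left out. Same-numbered libraries had correlations of deviations of 0.118 and 0.0809. Their cross pairs had -0.118 and -0.0809. With 2 CTRL libraries these values mirror each other, so they cannot decide whether the numbers are a pairing. The main fit took no pairing, and with the block the share differed by -3.77 points. With the block and without those cells, Npy stood at -1.93 and mt-Atp8 at 1.46 (edgeR adjusted p of 0.00688 and 0.0393). The 13 genes called there also held the inhibitory marker Vip, the blood genes S100a8 and S100a9, the endothelial marker Cldn5, and Ptgds. The part of RNA from other cell types in these calls was not tested. Between areas, 434 genes passed with no filter, 26 to 311 with 1 library left out and 176 to 261 otherwise with edgeR. The share difference ranged from -11.9 to 3.21 points with 1 library left out, and Cd24a reversed to 0.063 with 57 CT cells per library. Among the named genes, 836 values kept their direction and call or stayed close, 27 lost and 8 gained a call. The cause of each change was not tested.

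No layer 6b test was possible, because only 1 library had 10 or more such cells, and the MC genotypes have no replicate. In PFC DTA 1 a gene at 3 counts stands at 11.2 CPM, which limits low genes.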
